A study of Mus musculus with 12 samples.

Results

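A set of 9 genes, of 734 endogenous probes on the panel, was followed in mouse lung tissue. The genes concern endothelial identity and growth factor supply to the vessel wall. They were picked by name: Tek, Flt1, Cdh5, Thbd, Vegfa, Kitl, Bmp6, Gata2 and Sphk1. The counts are of barcoded probes on a NanoString innate immune panel, in which a probe pair binds each RNA and is counted without amplification. Chil4-deficient mice given DRA allergens (KO_DRA, n = 5, replicates 8 to 12) and their wild type littermates under the same exposure (B6_DRA, n = 5, replicates 3 to 7) were set beside littermates that received PBS (B6_PBS, n = 2, replicates 1 and 2). Dosing was intranasal, at 2 doses a week over 8 weeks, and RNA came from the post-caudal lobe. The labels do not expand DRA, they call the deficient mice both knockdown and KO, and they give neither age nor the altered part of the gene. Deficient mice given PBS were not analysed here, so the allergen response can be read in wild type mice alone.

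Blood vessels are lined by endothelial cells, which in the lung form the dense capillary net around the air sacs. Their junctions are held by the cadherin encoded by Cdh5, and their surface carries the receptor tyrosine kinases encoded by Tek, the angiopoietin receptor, and Flt1, a receptor for the growth factor encoded by Vegfa. Thrombomodulin, the product of Thbd, keeps their surface from clotting, and Gata2 encodes a transcription factor used by endothelial cells and by mast cell and blood progenitors. Other cells of the lung supply signals to this layer: the epithelium is a main source of Vegfa, and Kitl (stem cell factor, the ligand of Kit), Bmp6 (a bone morphogenetic protein) and Sphk1 (the kinase that makes sphingosine 1-phosphate) are made by several cell types. Counts from lung tissue do not show which cell made an RNA, and fewer cells of a type cannot be told apart from less RNA per cell.

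The promoters of 7 of the 9 genes matched RefSeq's GRCm38.p6 annotation, in 13 windows from 250 bases before to 50 bases after a gene start; Cdh5 and Thbd had no entry. The upstream 250 bases of the genes for both receptors are shown. Both genes were lower in B6_DRA than in B6_PBS in the counts below, while their promoters differ in base composition. Capitals mark each CG pair.
Tek, chr4:94739039-94739288, plus strand: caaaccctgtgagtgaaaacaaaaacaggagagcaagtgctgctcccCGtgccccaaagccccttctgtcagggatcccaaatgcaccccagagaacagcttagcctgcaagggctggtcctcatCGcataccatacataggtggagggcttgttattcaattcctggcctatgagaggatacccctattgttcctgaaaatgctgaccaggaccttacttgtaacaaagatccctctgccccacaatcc
Flt1, chr5:147726012-147726261, minus strand: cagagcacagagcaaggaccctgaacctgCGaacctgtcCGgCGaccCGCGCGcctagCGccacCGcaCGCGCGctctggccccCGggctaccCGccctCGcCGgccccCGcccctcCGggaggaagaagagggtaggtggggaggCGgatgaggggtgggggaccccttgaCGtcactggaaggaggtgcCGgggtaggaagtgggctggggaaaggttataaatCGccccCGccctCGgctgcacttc
The Tek stretch holds 2 CG pairs and 51.2% G or C, and the Flt1 stretch 23 CG pairs and 70.4% G or C. Over the 13 windows the median was 21 CG pairs, against 7 over all 32851 RefSeq promoter windows and 11 over the 629 windows of genes tested here. The ligand's promoter is shown for a GATA match, since Gata2 is among the 9 genes. Capitals mark the letters AGATAA, which begin 182 bases before the start.
Vegfa, chr17:46032378-46032627, minus strand: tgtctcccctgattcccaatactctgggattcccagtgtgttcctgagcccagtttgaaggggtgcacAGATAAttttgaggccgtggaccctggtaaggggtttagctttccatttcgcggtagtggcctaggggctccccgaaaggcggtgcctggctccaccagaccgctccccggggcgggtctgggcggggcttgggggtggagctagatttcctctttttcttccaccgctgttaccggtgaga

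Several sets of letters were searched on both strands of these windows, and no 6 bases match 2 of the sets that have that length. The GATA letters, AGATAA and the variant TGATAA, stood in 4 of 13 windows, belonging to 3 genes (Tek, Vegfa and Sphk1), against 18.6% of all promoters and 15.6% of those of tested genes. In the Tek window they begin 37 bases after the start. The E-box CACGTG stood in 3 of 13 windows (Sphk1 and Bmp6), against 7.15% of all promoters and 9.22% of those of tested genes. The hypoxia response letters were TACGTG, a form with G first, GACGTG, and a form with GG first, GGCGTG. They stood in 7 of 13 windows, belonging to 5 genes, against 22.7% of all promoters and 24.2% of those of tested genes. The ETS letters CCGGAAGT were in 0 of 13 windows, 3.89% of all promoters and 2.38% of those of tested genes. All of these sets but GATA hold a CG pair. The median was 21 CG pairs over the 13 windows, against 11 over the windows of tested genes. The part of CG content in these shares was not tested. Windows of 1 gene overlap in part, as for Sphk1, and a match is a description of letters, not a binding site.

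Libraries held 320290 to 673201 endogenous and housekeeping counts, of which Chil3, Chil4 and Retnla together took 2.79% to 43.6%. The 9 genes together took 0.74% to 3.38% of counts in KO_DRA, 0.859% to 2.54% in B6_DRA, and 4.27% and 3.77% in B6_PBS. Cdh5, Tek and Flt1 were counted well above background in every library, at no fewer than 461, 535 and 122 counts. This shows that they were detected and cannot test whether endothelial cells made the RNA. The targeted gene's probe bore out the genotype labels in part only, and all 5 KO_DRA libraries held more Chil4 than both B6_PBS libraries. Chil4 reached 255026 CPM (counts scaled to a common library size by TMM) in KO_DRA 8, the highest of the 12, against 11015 to 57356 CPM in the other 4 KO_DRA libraries. Chil4 stood at 30077 CPM in B6_DRA 5, against 100991 to 200206 CPM in the other 4 B6_DRA libraries, and at 9893 and 8353 CPM in B6_PBS. Where the probe binds relative to the altered part of Chil4 is not given in the sources used here. Whether KO_DRA 8 and B6_DRA 5 carry the wrong label cannot be told from these files, and if they did, every value of the genotype comparison would change. KO_DRA and B6_DRA therefore mean the libraries so labelled throughout. The 9 genes set the same 2 libraries apart, as the values below show, so the genotype comparison is also given without them.

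The first comparison asked what allergen exposure did to these genes in wild type lung. All 9 fell by about 1 on the log2 scale in B6_DRA, the median being -1.01 against 0.01 over all 665 genes tested, so that each stood near one level: 45.8% (Sphk1) to 52.0% (Cdh5) of B6_PBS. Each passed the test (edgeR's quasi-likelihood test on all 12 libraries, Benjamini-Hochberg adjusted over the 665 genes, threshold 0.05), with adjusted p between 0.0176 and 0.0356. With limma on the authors' scaled values Flt1, Bmp6, Gata2 and Sphk1 did not pass (adjusted p 0.0523 to 0.0610). By edgeR's test 41.8% of all genes tested were called, 17.7% of all as lower and 24.1% as higher. The members were known to be lower before they were chosen, so this count describes them and supports nothing further.

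**Figure D1:**
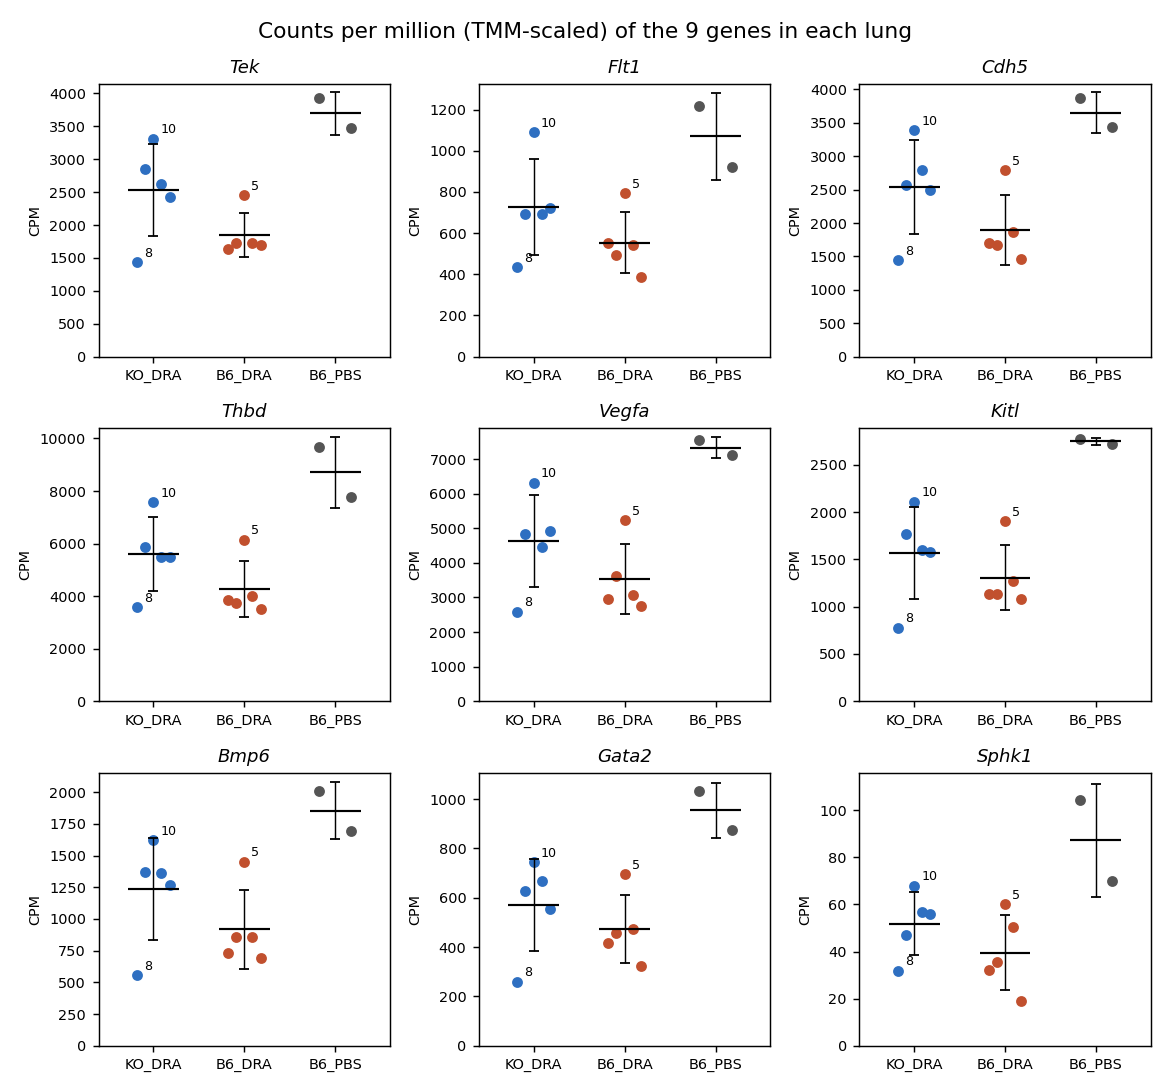
TMM-scaled CPM (vertical axes, from 0) of each of the 9 genes, with 1 point per library, a bar at the group mean and whiskers of 1 SD (KO_DRA n = 5, B6_DRA n = 5, B6_PBS n = 2). Small numbers name KO_DRA 8 and 10 and B6_DRA 5. All 5 B6_DRA points lie below both B6_PBS points in each panel, and KO_DRA 8 lies at or near the bottom.

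Among the receptors and junction genes, Tek had 1643, 1725, 2456, 1735 and 1697 CPM in B6_DRA 3 to 7, against 3926 and 3469 CPM in B6_PBS 1 and 2. B6_DRA 5 stood above the other 4 B6_DRA libraries, which lay close together, but still below both B6_PBS libraries. Tek had a log2 fold change of -1.0 (edgeR's adjusted p = 0.0176, SE 0.248). Cdh5 had 1701, 1670.05, 2791, 1864 and 1462 CPM in B6_DRA 3 to 7, against 3868 and 3431 CPM in B6_PBS 1 and 2, and fell by 0.94 on the log2 scale (edgeR's adjusted p = 0.0276, SE 0.280). Flt1 had 554, 495, 792, 542 and 387 CPM in B6_DRA 3 to 7, against 1219 and 919 CPM in B6_PBS 1 and 2. Its log2 fold change was -0.95 (edgeR's adjusted p = 0.0308, SE 0.296). No B6_DRA library reached either B6_PBS library for any of these 3 genes.

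Thbd, which encodes the surface anticoagulant, averaged 4263 ± 1071 CPM in B6_DRA (SD, n = 5) and 8706 ± 1345 CPM in B6_PBS (SD, n = 2). It fell by 1.03 on the log2 scale (edgeR's adjusted p = 0.0176, SE 0.257), its B6_DRA libraries running from 3527 to 6152 CPM. Among other genes listed for fibrinolysis and clotting at the cell surface, Plau, which encodes urokinase, had a log2 fold change of 0.88 (adjusted p = 0.0532) and Plaur, its receptor, 0.58, and neither passed the test.

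Of the ligands, Vegfa had 2967, 3621, 5241, 3064 and 2749.9 CPM in B6_DRA 3 to 7, against 7552 and 7120.3 CPM in B6_PBS 1 and 2. The gap between the highest B6_DRA library and the lower B6_PBS library was again wide, and the log2 fold change was -1.06 (edgeR's adjusted p = 0.0228, SE 0.290). Kitl had 1129, 1130.05, 1903, 1274 and 1082 CPM in B6_DRA 3 to 7, against 2776 and 2724 CPM in B6_PBS 1 and 2. Kitl differed least between the 2 B6_PBS libraries and fell by 1.08 on the log2 scale (edgeR's adjusted p = 0.0229, SE 0.298). Bmp6 had 729.6, 855, 1453, 857 and 691 CPM in B6_DRA 3 to 7, against 2013 and 1695 CPM in B6_PBS 1 and 2, a log2 fold change of -1.01 (edgeR's adjusted p = 0.0356, SE 0.342).

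Gata2 averaged 473 ± 137 CPM in B6_DRA (SD, n = 5) and 954 ± 113 CPM in B6_PBS (SD, n = 2), a fall by 1.01 on the log2 scale (edgeR's adjusted p = 0.0328, SE 0.328). Sphk1 had few counts, and so less precision: 16, 20, 26, 20 and 6 counts in B6_DRA 3 to 7, against 54 and 37 counts in B6_PBS 1 and 2. The 6 counts of B6_DRA 7 lay below that library's background of 6.98 counts, the mean plus 2 SD of its negative controls. Its log2 fold change of -1.13 (edgeR's adjusted p = 0.0308, SE 0.352) was the lowest of the 9. For none of the 9 genes did the B6_DRA and B6_PBS libraries overlap, as was so of 28.1% of all genes with B6_DRA below.

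These calls rested on the 2 B6_PBS libraries. Without B6_PBS 1, and likewise without B6_PBS 2, 0 of the 9 genes and 0 of all genes passed, while the 9 log2 fold changes ran from -1.08 to -0.74 and from -1.41 to -1.06. In those fits the remaining B6_PBS library is assumed to vary like the other groups. Leaving out B6_DRA 3, 4 or 7 left 4 of the 9 called, and leaving out B6_DRA 6 left 6. With library size alone as the scaling the median of all genes moved to -0.63 and that of the 9 to -1.59, a gap of -0.96 between them.

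The second comparison set libraries labelled Chil4-deficient against those labelled wild type, both given allergens, and its directions rest on labels that the Chil4 counts bear out in part only. None of the 9 genes passed the test, and 0% of all genes did (0 of 665 by edgeR, with 84 at an unadjusted p under 0.05, 1 called by DESeq2 and 0 by limma-voom). The 9 estimates lay above 0, at 0.26 (Kitl) to 0.45 (Tek) on the log2 scale with a median of 0.39 against 0.01 over all genes, and their adjusted p ran from 0.350 to 0.564. B6_DRA enters both this comparison and the first, so the opposite signs are not independent of each other.

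Tek had 1439, 2857, 3313, 2621 and 2431 CPM in KO_DRA 8 to 12, against 1643, 1725, 2456, 1735 and 1697 CPM in B6_DRA 3 to 7. KO_DRA 9, 10 and 11 lay above all B6_DRA libraries, KO_DRA 12 lay just under B6_DRA 5, and KO_DRA 8 lay below all of them. The log2 fold change was 0.45 (95% interval 0.01 to 0.90 on 9 residual degrees of freedom), with an unadjusted p of 0.0403 and an adjusted p of 0.350 by edgeR. Tek alone of the 9 had an unadjusted p under 0.05.

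Cdh5 had 1441, 2565, 3392, 2796 and 2493 CPM in KO_DRA 8 to 12, against 1701, 1670.05, 2791, 1864 and 1462 CPM in B6_DRA 3 to 7. KO_DRA 10 stood above every B6_DRA library, KO_DRA 11 barely so, and KO_DRA 8 below every one, with a log2 fold change of 0.42 (95% interval -0.08 to 0.92). Flt1 had 433, 693, 1091, 694 and 721 CPM in KO_DRA 8 to 12, and only KO_DRA 10 stood above B6_DRA 5, at 792 CPM (log2 fold change 0.39, 95% interval -0.14 to 0.92). Thbd averaged 5602 ± 1422 CPM in KO_DRA and 4263 ± 1071 CPM in B6_DRA (SD, n = 5 each), a log2 difference of 0.39 (95% interval -0.06 to 0.85).

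Vegfa had 2590.2, 4845, 6319, 4461 and 4929 CPM in KO_DRA 8 to 12, a range that takes in all 5 B6_DRA libraries. Its log2 fold change was 0.39 (95% interval -0.13 to 0.91). Kitl had 778, 1763, 2111, 1597 and 1576 CPM in KO_DRA 8 to 12, with a log2 fold change of 0.26 (95% interval -0.27 to 0.80), the smallest of the 9. Bmp6 had 556, 1373, 1622, 1366 and 1266 CPM in KO_DRA 8 to 12 and a log2 fold change of 0.43 (95% interval -0.18 to 1.04). For each of these ligands KO_DRA 8 was the lowest of all 12 libraries.

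Gata2 averaged 571 ± 187 CPM in KO_DRA and 473 ± 137 CPM in B6_DRA (SD, n = 5 each), with a log2 fold change of 0.27 (95% interval -0.32 to 0.86). Sphk1 had 14, 25, 35, 24 and 21 counts in KO_DRA 8 to 12, and its log2 fold change was 0.38 (95% interval -0.28 to 1.04). The groups overlapped for all 9 genes, and of all genes tested 1.2% did not overlap. Apart from that of Tek, these intervals hold 0, and their upper limits ran from 0.80 (Kitl) to 1.04 (Bmp6 and Sphk1) on the log2 scale, so neither equality nor a rise was shown.

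Without KO_DRA 8, 3 of the 9 genes passed, namely Tek at 0.60 (adjusted p = 0.0344 by edgeR), Cdh5 at 0.57 (adjusted p = 0.0476) and Bmp6 at 0.62 (adjusted p = 0.0499), in a fit that called 120 genes. Without B6_DRA 5, 0 of the 9 genes passed and their estimates ran from 0.44 to 0.66. Without both, a setting chosen after the data were seen, 8 of the 9 passed at 0.61 to 0.84 and 257 genes were called; Sphk1, at 0.70, did not (adjusted p = 0.0606 by edgeR). Both libraries were left out for their Chil4 counts, but KO_DRA 8 is also the lowest KO_DRA library and B6_DRA 5 the highest B6_DRA library for these genes. Leaving them out therefore had to raise the estimates, and the higher count is given as a description.

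**Figure D2:**
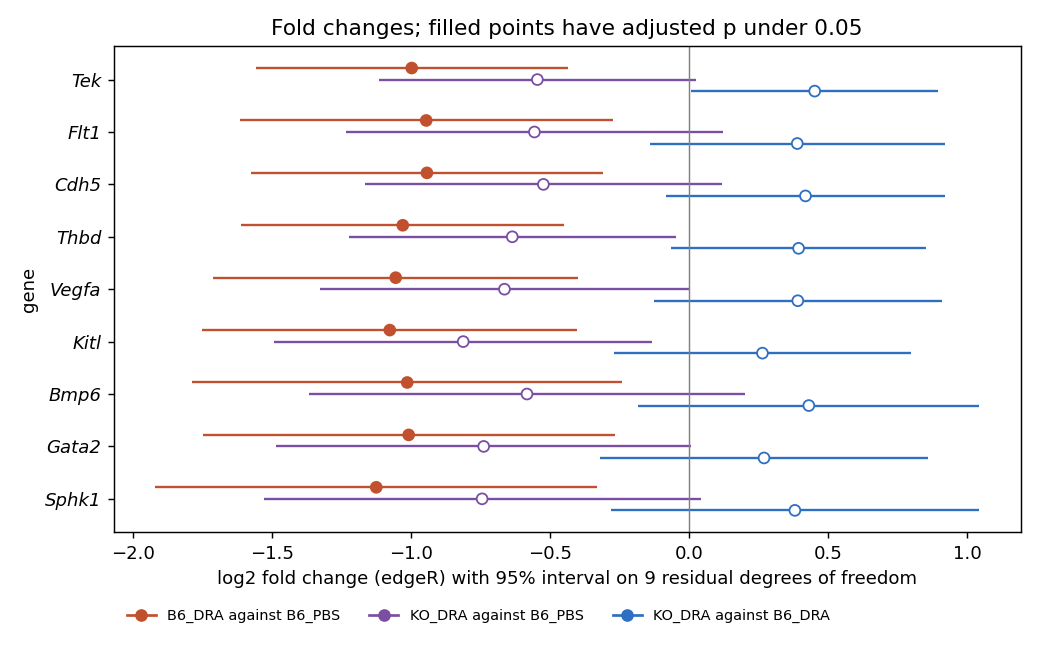
Log2 fold changes (horizontal axis) of the 9 genes in the 3 comparisons, with 95% intervals on 9 residual degrees of freedom; filled points have an adjusted p under 0.05. The 9 points of B6_DRA against B6_PBS are filled and lie between -1.13 and -0.94, and the points of KO_DRA against B6_DRA are open and lie between 0.26 and 0.45.

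Chil4-deficient mice given allergens were also set against wild type mice given PBS, a contrast of genotype and allergen together. The 9 log2 fold changes ran from -0.81 (Kitl) to -0.52 (Cdh5), with a median of -0.64 against 0.02 over all genes. None passed (adjusted p 0.137 to 0.249 by edgeR), and 3.01% of all genes did, all of them higher. Of the 9, 4 had an unadjusted p under 0.05 by edgeR, as had 190 of all 665 genes tested. All 5 KO_DRA libraries lay below both B6_PBS libraries for 8 of the 9 genes, as for 16.5% of all genes. The exception was Flt1, for which KO_DRA 10, at 1091 CPM, exceeded B6_PBS 2, at 919 CPM. A deficit against B6_PBS passed the test in B6_DRA and not in KO_DRA, and the test of that difference is the genotype comparison above, which the 9 genes did not pass.

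Across the 12 libraries the 9 genes kept nearly 1 order, which was not theirs alone: genes outside the 9 had much the same profile, as given below. B6_PBS 1 was the highest library for all 9, and B6_PBS 2 and KO_DRA 10 took the next 2 places for all 9. B6_DRA 5 came 4th to 6th. The members were known to be lower in B6_DRA than in B6_PBS before they were chosen, so B6_PBS above B6_DRA is a description. How many of all genes keep this order was not counted. At the low end, KO_DRA 8 was lowest for Tek, Cdh5, Vegfa, Kitl, Bmp6 and Gata2, and B6_DRA 7 was lowest for Flt1, Thbd and Sphk1. KO_DRA 8, lowest for 6 of the 9, held the most Chil4, and KO_DRA 10, the highest allergen library, held the least Chil4 of the allergen libraries. The part of the Chil4 level in these orders was not tested.

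Each gene was also divided by Cdh5 within its own library, a ratio that needs no library scaling. Levels in CPM spanned 2.73-fold for Tek over the 12 libraries, 3.15-fold for Flt1, 3.57-fold for Kitl and 3.98-fold for Gata2. As ratios to Cdh5 they spanned 1.32-fold, 1.31-fold, 1.47-fold and 1.52-fold in the same order of genes. Thbd spanned 2.74-fold in CPM and 1.27-fold as a ratio, Vegfa 2.92-fold and 1.36-fold, and Bmp6 3.62-fold and 1.39-fold. Sphk1, at few counts, spanned 5.48-fold in CPM and 2.08-fold as a ratio. The span of each of the 8 genes was thus smaller as a ratio to Cdh5 than in TMM-scaled CPM. These genes and Cdh5 were known to be lower in wild type lung given allergens before they were chosen. A fall shared by choice cancels in such a ratio. The smaller spans are therefore a description and do not test whether the genes moved together. How many genes outside the set have a smaller span as a ratio to Cdh5 was not counted.

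**Figure D3:**
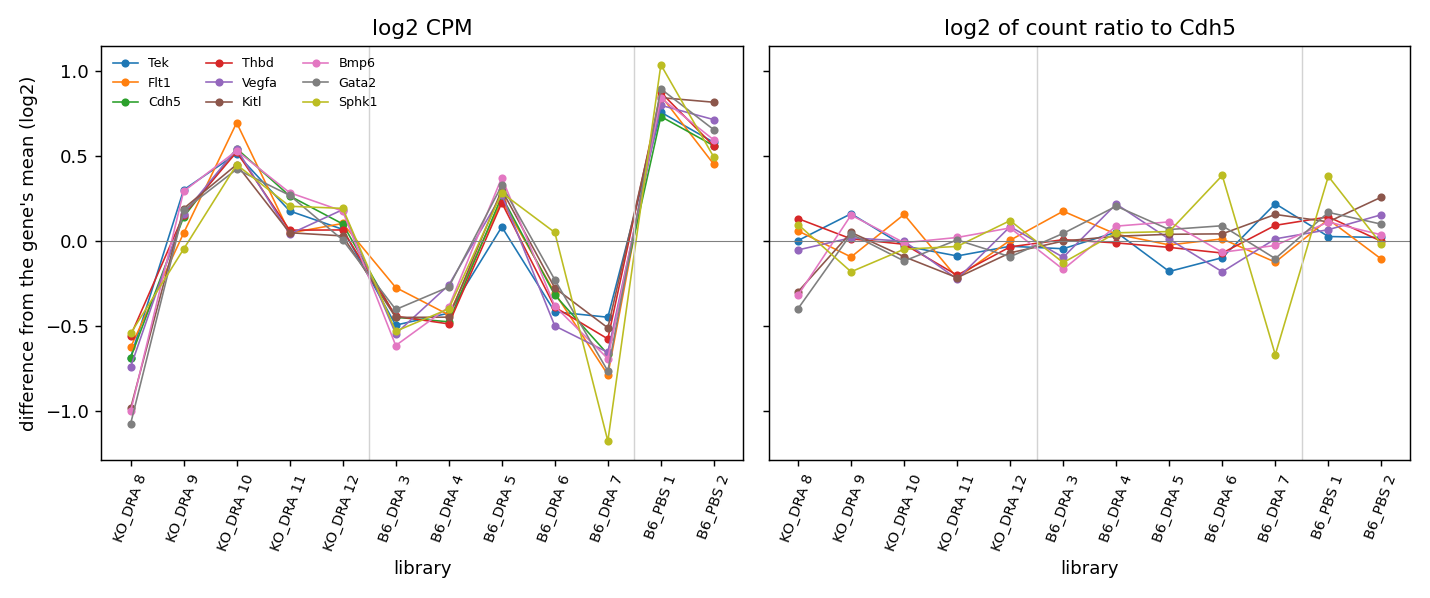
Log2 CPM (left) and log2 count ratio to Cdh5 (right) of the 9 genes in each of the 12 libraries, each as the difference from the gene's own mean; lines join 1 gene and vertical lines part the groups. On the left all 9 genes lie low in KO_DRA 8 and high in B6_PBS 1. On the right the spread shrinks, with Sphk1 in B6_DRA 7 farthest from 0.

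The ratios were compared between groups by exact two-sided permutation tests, 24 in all, in which the smallest p is 0.0952 for 5 libraries against 2. None passed after adjustment over the 24 (adjusted p 0.571 or more). With 5 libraries against 2 none could pass, since the smallest p lies above the threshold. With 5 against 5 a gene could pass only if several reached the smallest p together. The lack of calls therefore does not show that the ratios were equal. In B6_DRA against B6_PBS the 8 log2 ratios to Cdh5 differed by -0.24 (Sphk1) to 0.01 (Flt1). The value for Sphk1 was -0.73 with the negative control mean subtracted, -0.043 without B6_PBS 1 and -0.44 without B6_PBS 2. In KO_DRA against B6_DRA the lowest p belonged to Kitl, whose log2 ratio to Cdh5 was -0.89, -0.54, -0.68, -0.81 and -0.66 in KO_DRA 8 to 12 and -0.59, -0.56, -0.55, -0.55 and -0.43 in B6_DRA 3 to 7. Of the KO_DRA libraries, 4 of 5 lay below every B6_DRA library, a difference of -0.18 (exact permutation p = 0.0397, 0.571 adjusted over 24 tests). Gata2 followed at -0.17 (exact permutation p = 0.0635, 0.571 adjusted), with 2 of 5 KO_DRA libraries below every B6_DRA library. The other 6 genes gave exact permutation p of 0.698 or more.

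The genes outside the 9 with the most similar pattern were found by the mean absolute difference between log2 CPM profiles over the 12 libraries, each centred on its own mean. Nearest to the mean profile of the 9 were Rasgrf2 (0.057), Ptprb (0.086), Smad7 (0.092), Tspan7 (0.093), Timp3 (0.094) and Sptbn1 (0.096), where the median of all 665 genes was 0.483. All 6 were also the nearest in the authors' scaled values. Of the members, only Cdh5 (0.044) lay closer to that mean than Rasgrf2. Gata2 ranked 13th and Sphk1 32nd among all genes in closeness to it, so the profile was not confined to the 9. Ptprb encodes the endothelial receptor phosphatase that acts on the product of Tek, Smad7 an inhibitor of TGF-beta and BMP signalling, and Timp3 an inhibitor of metalloproteinases. Tek lay nearest to Cav1 (0.043), which encodes the coat protein of caveolae, and then to Tspan7 (0.054). Flt1 and Sphk1 lay nearest to Ptprb (0.074 and 0.143), Cdh5 and Thbd to Tspan7 (0.064 and 0.059), Vegfa and Bmp6 to Rasgrf2 (0.076 and 0.112), Kitl to Smad7 (0.110) and Gata2 to Sptbn1 (0.111). All profiles share the 12 libraries and their scaling.

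Other endothelial genes on the panel moved alike in the allergen comparison. Of a list of 36 endothelial markers 10 had a probe, 4 of them among the 9 genes, and of the other 6 in B6_DRA against B6_PBS 5 fell and 0 rose, with a median of -0.86. The log2 fold changes were -0.97 for Cav1, -0.94 for Edn1, which encodes endothelin 1, -0.86 for Ptprb, -0.85 for S1pr1, the sphingosine 1-phosphate receptor of endothelium and lymphocytes, and -0.73 for Erg, an endothelial transcription factor (adjusted p 0.0222 to 0.0480 by edgeR). Cd34, found on endothelium and on blood progenitors, had -0.37 (adjusted p = 0.0739). Of the leukocyte adhesion genes of activated endothelium 1 of 4 passed: Icam1 fell by 0.32, close to the threshold (adjusted p = 0.0485 by edgeR). Vcam1, Sele and Selp, at -0.27, 0.86 and 0.00, did not pass.

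Partners of the members were counted where the panel had a probe; Kdr, Nrp1, Procr and Pecam1 were not analysed here. Among 10 angiogenic ligands and receptors outside the 9 genes, 3 fell and 0 rose: Vegfc, a lymphatic growth factor, at -0.86, Pdgfb, which draws pericytes, at -0.84, and Jag1, a Notch ligand, at -0.54. Angpt1 and Angpt2, the ligands of the receptor encoded by Tek, had log2 fold changes of -0.74 (adjusted p = 0.0591) and -0.33 (adjusted p = 0.281). Of 4 BMP pathway genes beside Bmp6, 3 fell: Smad7 at -0.91, and the BMP targets Id1 at -0.69 and Id3 at -0.68, while Smad1 had -0.23 (adjusted p = 0.133).

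Kit, the receptor for the product of Kitl, had a log2 fold change of -0.39 (adjusted p = 0.0790). Kit and Gata2 are also mast cell genes, and 0 of 6 tested mast cell genes passed; the lowest p belonged to Tpsb2, a mast cell tryptase (adjusted p = 0.0537), with 11.2 counts on average in B6_DRA and 4 and 5 counts, below background, in B6_PBS. The summed level of the mast cell list was 714 to 996 CPM in KO_DRA, 832 to 1066 CPM in B6_DRA and 902 to 929 CPM in B6_PBS. Hdc and Kit gave 83.7% to 92.9% of the list's counts in each library, and the part of mast cells in the values of Gata2 and Kitl was not tested. Of the other GATA factors, Gata6 fell by 0.53, Gata1 passed as higher (adjusted p = 0.0328 by edgeR) with 3 to 20 counts in B6_DRA and 3 and 5 counts, below background, in B6_PBS, so no fold is given, and Gata3 had -0.42 (adjusted p = 0.145).

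**Figure D4:**
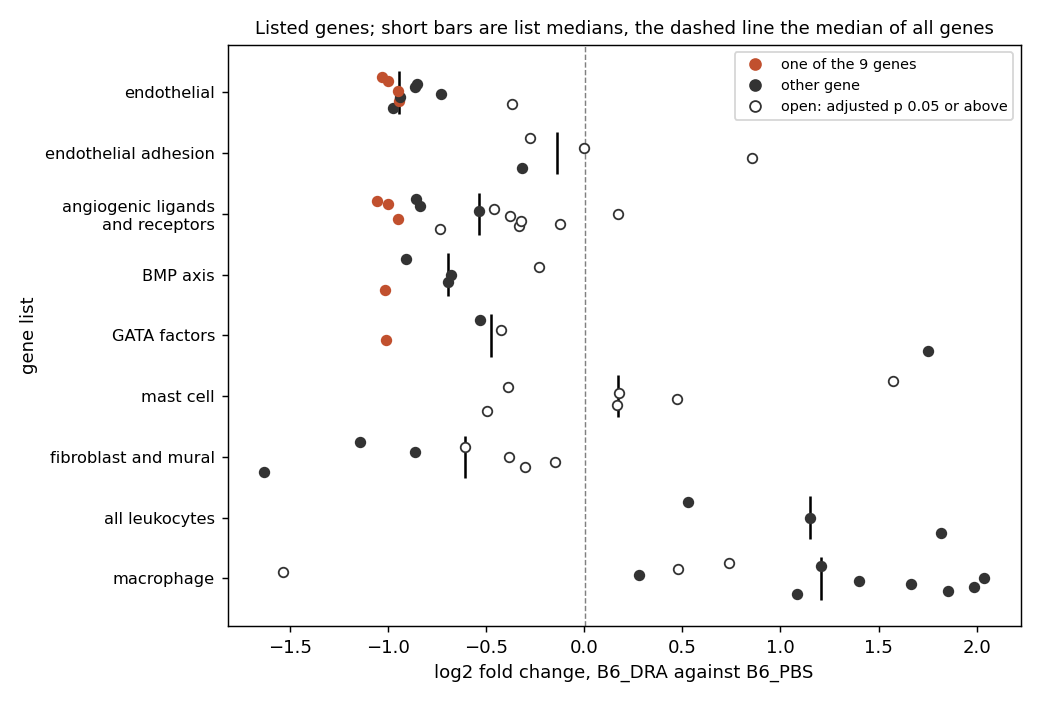
Log2 fold change of B6_DRA against B6_PBS (horizontal axis) of the genes of 9 lists, 1 point per gene; coloured points are members of the 9, open points have an adjusted p of 0.05 or above, short bars are list medians and the dashed line is the median of all genes. The endothelial list lies at the left, at a median of -0.94, or -0.86 for its 6 genes outside the 9. The endothelial adhesion list has a median of -0.14. Leukocyte and macrophage genes lie mostly at the right, where Ptprc and Csf1r would lie left of 0 with library size alone as the scaling.

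Markers of some other lung cells moved in the same libraries. In B6_DRA against B6_PBS 3 of 3 leukocyte genes rose (Itgb2 by 1.82, Laptm5 by 1.15 and Ptprc by 0.53, though Ptprc turned to -0.13 with library size alone as the scaling). So did 8 of 11 macrophage genes (C1qb by 1.99, C1qa by 1.85, and the least, Csf1r, by 0.28, which turned to -0.36 with library size alone). Of the other 3 macrophage genes, which did not pass, Marco had a log2 fold change of -1.54 (adjusted p = 0.161), Siglec1 0.74 and Mertk 0.48. Of 6 eosinophil genes 5 rose (Ccr3 by 3.37), but 3 of the 5 were at background in both B6_PBS libraries, among them Prg2 with 40 to 130 counts in B6_DRA and 6 counts in each B6_PBS library. The summed leukocyte list was 4283 to 11929 CPM in KO_DRA, 5560.2 to 10975 CPM in B6_DRA and 3866 and 3941 CPM in B6_PBS. The summed macrophage list was 6891 to 18685 CPM in KO_DRA, 9453 to 16894 CPM in B6_DRA and 5749 and 5812 CPM in B6_PBS. The summed eosinophil list, in which Epx was at background in every library, was 487 to 3819 CPM in KO_DRA, 1769 to 8476 CPM in B6_DRA and 344 and 364 CPM in B6_PBS. Of 7 fibroblast and mural genes 3 fell (log2 fold changes of -1.63 for Col12a1, -1.14 for Timp3 and -0.86 for Pdgfra), and the summed list was 10985 to 17738 CPM in KO_DRA, 10435 to 15043 CPM in B6_DRA and 18692 and 19238 CPM in B6_PBS. Of the 2 epithelial genes Cdh1 fell by 0.55 and Lamp3 had 0.29 (adjusted p = 0.102). Of 4 neutrophil genes 0 passed, with a median of 0.15 (S100a8 0.36, Csf3r -0.22). The 1 lymphocyte gene tested, Ms4a1, had 0.52 (adjusted p = 0.272 by edgeR) and did not pass. Nor did the 1 platelet gene tested, Pf4, at -0.21 (adjusted p = 0.372 by edgeR). Of 8 immediate early genes 4 fell, with log2 fold changes of -1.62 (Fosb), -0.88 (Cyr61), -0.79 (Jun) and -0.69 (Ier3). The part of these shifts in the values of the 9 genes was not tested. In KO_DRA against B6_DRA 0 genes of any of these lists passed by edgeR.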

How the data were processed

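The authors deposited raw NanoString counts per probe for 734 endogenous and 20 housekeeping probes and 8 negative and 6 positive controls in 12 libraries, and a signal table in which each library's counts are rescaled by a constant. How that constant was set is not given in the sources used here, and R 4.2.0, edgeR and limma are listed, with no role, per the submitters' processing notes. Groups come from the sample titles. Where libraries of 1 group came from is stated only as mice, so a p-value reflects only the spread among these samples.

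The main test was edgeR's quasi-likelihood test (4.0.16, R 4.3.3) on raw counts. The filter, filterByExpr (minimum count 10, minimum total 15), left 665 endogenous genes and 20 housekeeping probes. TMM scaling and the model fit used both sets, with 3 group means on 12 libraries and 9 residual degrees of freedom. Two-sided p-values were adjusted by Benjamini-Hochberg across the 665 genes and called under 0.05. SE was taken as the size of the log2 fold change divided by the root of F; the 95% intervals use 9 degrees of freedom, fewer than the test's own, so an interval may reach 0 where the unadjusted p is under 0.05. Log2 CPM used a prior count of 2. Background was set per library at 2 SD above its negative control mean. Ratios to Cdh5 used raw counts.

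Alternatives were library size alone, housekeeping size factors, no filter, TMM without Chil3, Chil4 and Retnla, limma 3.58.1 on log2 of the authors' scaled signal with a pseudocount of 1, limma-voom, DESeq2 1.42.0, and each library left out. One was added after the data were seen: B6_DRA 5 and KO_DRA 8 left out together. It was first dropped after its values were known, because both libraries are also extreme for the 9 genes, and then restored so that its values stand here. The members and all gene lists were chosen with earlier results of these data known. Genes outside the 9 were picked for naming by a fixed rule: from each list up to 6 called genes by smallest p, or up to 2 where none was called, the partners of members, and the genes nearest in pattern. Not every gene that met the rule is named above. Among those left out were C1qc, Adgre1, Cd68 and Mrc1 of the macrophage list and Rnase2a, Il5ra and Alox15 of the eosinophil list. Vcam1, Sele, Selp, Cd34, Smad1, Gata3, Lamp3, Csf1r, Marco, Siglec1 and Mertk were named after their values were seen, to complete a short list. The procedure was also run on simulated counts with set fold changes. The outcome is not given here, so that run does not show how often a real change is missed.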

Additional observations from a re-analysis of the deposited data

Results flagged for a closer look

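Within groups of 5 libraries, 7 of the 34 sets of values tested had a highest or lowest library whose gap to its nearest neighbour took up more of the group's range than Dixon's 95% critical value of 0.71, where chance gives 1.7 of 34. The sets are not independent, since they share the same libraries and the 9 genes kept nearly 1 order across them. B6_DRA 5 was the highest B6_DRA library in log2 CPM for Tek (gap over range 0.864), Thbd (0.767), Kitl (0.711) and Bmp6 (0.711). KO_DRA 8 was the lowest KO_DRA library for Bmp6 (0.768) and Gata2 (0.722). The log2 ratio of Kitl to Cdh5 was highest in B6_DRA 7 among the B6_DRA libraries (0.729). B6_DRA 5 and KO_DRA 8 are also the libraries whose Chil4 level stands apart from their group, and the part of this in the values was not tested.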

How the results depend on the processing

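No paired analysis was possible because the groups share no replicate number. The 9 genes kept estimates below 0 in B6_DRA against B6_PBS, above 0 in KO_DRA against B6_DRA and below 0 in KO_DRA against B6_PBS under every alternative run. In B6_DRA against B6_PBS, 9 of the 9 were called under each other scaling, filter or tool except limma on the authors' scaled values, which called 5 (adjusted p 0.0523 to 0.0610 for Flt1, Bmp6, Gata2 and Sphk1); leaving out 1 library gave 0 to 9 of the 9 and 0 to 345 of all genes, against 278. The share of calls that were higher changed with scaling: library size alone called 57 higher and 222 lower, housekeeping size factors 163 and 72, and the authors' scaled values 162 and 45, against 160 and 118. In KO_DRA against B6_DRA, DESeq2 called 1 gene, leaving out 1 library gave 0 to 3 of the 9 and 0 to 120 genes, and leaving out B6_DRA 5 and KO_DRA 8 together gave 8 of the 9 and 257 genes (118 higher, 139 lower). In KO_DRA against B6_PBS that last setting called 1 of the 9 (Kitl, -0.64, adjusted p = 0.0169 by edgeR) and 37 genes; library size alone called 4 genes, limma-voom 13 and DESeq2 56, against 20, and leaving out 1 library gave 0 to 79 genes and 0 of the 9. With library size alone Plaur, Ptprc, Csf1r, Ms4a1 and S100a8 turned to -0.11, -0.13, -0.36, -0.12 and -0.28 in B6_DRA against B6_PBS. Leaving out 1 B6_PBS library put S100a8 between -0.0058 and 0.79 and Pf4 between -0.44 and 0.011. The log2 ratios to Cdh5 are small and the signs of most are not settled. Taken against the mean of the other 8 genes, the ratio turned to 0.056 for Tek, 0.011 for Thbd and 0.012 for Gata2 in B6_DRA against B6_PBS, to 0.0076 for Flt1, 0.026 for Thbd, 0.015 for Vegfa and 0.042 for Bmp6 in KO_DRA against B6_DRA, and to 0.12 for Tek, 0.11 for Flt1, 0.037 for Thbd and 0.039 for Bmp6 in KO_DRA against B6_PBS; with the negative controls subtracted it was -0.0088 for Flt1 and -0.73 for Sphk1 in B6_DRA against B6_PBS, 0.38 for Sphk1 in KO_DRA against B6_DRA and -0.34 for Sphk1 in KO_DRA against B6_PBS, against -0.24, 0.053 and -0.19 without that step for Sphk1. Leaving out 1 library gave ratio differences of -0.091 to 0.0084 for Tek, -0.11 to 0.12 for Flt1 and -0.44 to -0.043 for Sphk1 in B6_DRA against B6_PBS. In KO_DRA against B6_DRA it gave -0.029 to 0.071 for Tek, -0.078 to 0.016 for Flt1, -0.057 to 0.027 for Thbd, -0.071 to 0.029 for Vegfa, -0.046 to 0.072 for Bmp6 and -0.0996 to 0.16 for Sphk1, and in KO_DRA against B6_PBS -0.060 to 0.0021 for Tek, -0.15 to 0.088 for Flt1 and -0.39 to 0.0098 for Sphk1. For Kitl in KO_DRA against B6_DRA the exact permutation p was 0.0635 to 0.0794 without any of 9 of the 10 allergen libraries and 0.0159 without KO_DRA 9; for Gata2 it was 0.0159 without B6_DRA 7 and 0.0476 without KO_DRA 9. The causes of these shifts were not tested. Depth limits Sphk1, counted 6 to 54 times a library.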

Other observations

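Some endothelial genes outside the 9 did not keep 1 ratio to Cdh5, a pattern picked after the values were seen and given without a test. The log2 ratio of Erg to Cdh5 averaged -2.92 ± 0.052 in KO_DRA and -2.65 ± 0.060 in B6_DRA (SD, n = 5 each), and all 5 KO_DRA libraries lay below all 5 B6_DRA libraries. That of Sele, the endothelial adhesion molecule E-selectin, averaged -6.19 ± 0.546 in KO_DRA and -5.06 ± 0.487 in B6_DRA (SD, n = 5 each), with the same separation, at 16.4 and 25.2 counts on average. Of all other tested genes, 1.2% had a ratio to Cdh5 that was lower in every KO_DRA than in every B6_DRA library. Against B6_PBS the ratios to Cdh5 of Erg, Cd34, Icam1, Vcam1, Selp and Sele were higher in 5 of 5 B6_DRA libraries, by 0.21, 0.61, 0.66, 0.70, 0.93 and 1.80 on the log2 scale. Cdh5 itself fell, and 72.9% of the 664 other tested genes separated in this way. Over the 12 libraries Icam1 spanned 1.41-fold in CPM and 2.05-fold as a ratio to Cdh5, where Cav1 spanned 2.69-fold and 1.34-fold.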
